A study of Rattus norvegicus with 6 samples.

Results

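The complement genes of the rat ileum were followed in single-nucleus RNA sequencing of 6 ileal samples, 3 from sham-operated controls (CON) and 3 from rats with severe acute pancreatitis (SAP). The 9 genes C1qa, C1qb, C1qc, C1s, C3, Cfb, Cfd, C7 and Cd55 were taken by name from the 28282 gene symbols of the count tables, and all 9 were listed in every library. Their unique molecular identifiers (UMIs) were summed per library over the nuclei that passed quality control, over all nuclei and within each class of nuclei. All rats were wild type male Sprague-Dawley animals, 6 weeks old. For SAP, 3% sodium taurocholate was injected into the biliopancreatic duct at 0.1 mL per 100 g. CON rats had a laparotomy alone, both groups were fasted after surgery, and the ileum was taken at 24 h. Visible lymphoid aggregates and mesenteric fat were kept out of the samples at dissection. All 6 libraries carry 1 batch label.

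Complement is a cascade of plasma and tissue proteins that tags surfaces for uptake and can pierce membranes. In the classical pathway C1q, built from the chains encoded by C1qa, C1qb and C1qc, binds a target and activates the proteases C1r and C1s. The alternative pathway amplifies cleavage of the central protein C3 through factor B (Cfb) and factor D (Cfd), and C7 is a part of the terminal pore. Cd55, decay-accelerating factor, sits on host membranes and takes apart the enzymes that cleave C3. C1q is known as a product of tissue macrophages, factor D as a product of adipocytes, and Cd55 as a protein of epithelial and blood cells.

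The libraries held 3189 to 9246 passing nuclei, 40970 in all, with 5549260 to 28771508 UMIs over them and a median of 1516 to 1889.5 UMIs per nucleus. The median mitochondrial share was 0.125% to 0.700% in CON and 0.387% to 1.84% in SAP. Barcodes were deposited as running labels, of which 5398 of 34979 occur in more than 1 library, so shared nuclei could not be looked for by sequence. Clustering with all complement genes left out gave 32 clusters, from which 16 classes were named by their markers and 9 clusters stayed unnamed. Of these 25 classes and clusters, 18 had at least 10 nuclei in every library and were tested.

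The 3 C1q chains were highest in cluster N7, 533 nuclei whose leading genes include Csf1r, the receptor for a macrophage growth factor, beside C1qc and C1qa, which were not used for clustering. In N7 the macrophage markers had a mean log2 ratio of 2.71 to all other nuclei and the dendritic markers 2.04, a lead that was too small for a name, so the cluster is called by its number. C1qb, C1qc and C1qa are neighbours in that order on chromosome 5 in the RefSeq annotation. RefSeq promoter sequences, 250 bases before to 50 after the start on build GRCr8, were found for 5 of the 9 genes. Those of C1qa (chr5:154419884-154420183, minus strand) and C1qb (chr5:154407778-154408077, minus strand) are shown because the chains share their leading cluster, with capitals marking TGCTGA, the MAF half-site, and GAGGAA, a core recognised by PU.1, on either strand.
C1qa: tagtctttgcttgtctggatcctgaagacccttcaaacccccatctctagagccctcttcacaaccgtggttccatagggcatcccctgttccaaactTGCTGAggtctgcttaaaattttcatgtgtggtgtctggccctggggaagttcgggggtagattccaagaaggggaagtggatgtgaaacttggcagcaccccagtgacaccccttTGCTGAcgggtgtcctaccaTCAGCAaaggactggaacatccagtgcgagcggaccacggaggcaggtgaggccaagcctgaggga
C1qb: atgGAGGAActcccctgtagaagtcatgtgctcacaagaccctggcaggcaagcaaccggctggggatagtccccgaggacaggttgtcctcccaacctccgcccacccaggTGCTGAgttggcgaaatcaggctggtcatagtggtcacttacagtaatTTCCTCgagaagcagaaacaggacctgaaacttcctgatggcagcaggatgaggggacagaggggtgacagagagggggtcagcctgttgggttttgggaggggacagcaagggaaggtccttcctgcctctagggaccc
The MAF half-site occurred 3 times in the C1qa window and 1 time in that of C1qb, and was present in 18.4% of 33469 RefSeq promoters of the same length. The PU.1 core occurred 2 times in the C1qb window and 0 times in that of C1qa, against a presence in 27.6% of promoters. No 2 matches shared bases in either window, and a match is only a match of letters. The MAF half-site was not particular to the C1q windows. It occurred 2 times in the window of C3 and 1 time in that of Cd55, genes with other leading classes, and 0 times in that of Cfd. The PU.1 core occurred 0 times in the windows of C3, Cfd and Cd55.

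For C1qa, CPM (UMIs of the gene per 1000000 UMIs of the class) in N7 were 1177, 1573 and 686 in CON replicates 1, 2 and 3 and 634, 144 and 737 in SAP replicates 1, 2 and 3. SAP replicate 2, with 12 nuclei in N7, was far below the other 5 libraries, and the groups overlapped. The mean was 825 CPM ± 492 (SD, n = 6). Of the other classes, endothelial-like nuclei came next at 168 CPM ± 186 (SD, n = 6), below N7 in 6 of 6 rats, and they did not stand apart from neutrophil-like nuclei, above which they were in 2 of 3 rats. The endothelial-like level was uneven, since 1 such nucleus in CON replicate 1 held 82 of the 1565 C1qa UMIs of that library. C1qb in N7 had 119 CPM ± 31.3 (SD, n = 6), above endothelial-like nuclei at 22.0 CPM ± 24.8 (SD, n = 6) in 6 of 6 rats. C1qc had 666 CPM ± 249.7 (SD, n = 6), above B-like nuclei, next in order at 61.5 CPM ± 40.0 (SD, n = 5), in 5 of 5 rats. SAP replicate 2 was also the lowest library for C1qc, and CON replicate 3 was the lowest for C1qb.

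N7 had the highest level but held a minority of the UMIs. It gave 19.3% of the C1qa UMIs (942 of 4883), 15.6% of those of C1qb and 25.2% of those of C1qc. With each nucleus thinned to 1200 UMIs, 48.2% of N7 nuclei had a C1qa UMI, against 2.67% of stem/TA-like nuclei, the proliferating cells of the crypt, which are not a known source of C1q. Without thinning the shares were 55.3% and 3.64%, at median depths of 1578 and 1608 UMIs. Over epithelial nuclei the 3 chains together stood at 19.1 to 106 CPM by library, highest in SAP replicate 3 and lowest in SAP replicate 2. Barcodes that failed quality control had 27.7 to 210 CPM of them, highest in SAP replicate 3 and lowest in SAP replicate 2. The order of the libraries was not the same throughout. CON replicate 1 had 206 CPM in failing barcodes, near SAP replicate 3. In epithelial nuclei it had 41.7 CPM, below the 48.8 and 50.9 CPM of CON replicates 2 and 3. The listed barcodes went down to 545 UMIs in CON replicate 2 and 502 in SAP replicate 1, but only to 1000 in the others. In these 2 libraries 26.2% and 12.2% of barcodes passed, against 76.4% to 79.9% elsewhere. Failing barcodes were therefore not alike across libraries, and their level is not a measure of free RNA. Of the C1q UMIs pooled over libraries, C1qa made up 54.4% in N7 and 60.7% in epithelial nuclei, C1qb 7.10% and 11.02%, and C1qc 38.5% and 28.3%. By library the ranges overlapped. C1qa ran from 21.1% to 59.3% in N7 and from 48.8% to 65.9% in epithelial nuclei. Within each library C1qa was lower and C1qc higher in N7. C1qb was lower in N7 except in SAP replicate 2, at 21.1% against 11.5%. The part of free RNA in the levels outside N7 was not tested.

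**Figure D1:**
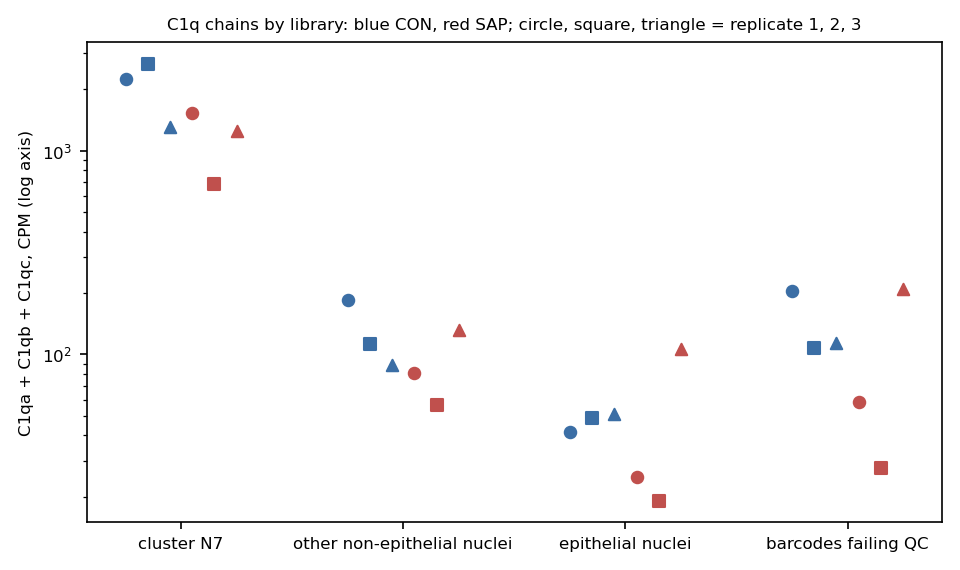
Summed CPM of C1qa, C1qb and C1qc on a log axis, by library, in cluster N7, other non-epithelial nuclei, epithelial nuclei and barcodes that failed quality control. Each point is 1 library, and N7 is highest in every library, from 685 CPM in SAP replicate 2 to 2652 CPM in CON replicate 2.

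C1s, the protease of the C1 complex, and C7 of the terminal pathway were highest in fibroblast-like nuclei, the connective tissue cells of the gut wall. C7 in these nuclei was 706, 707 and 576 CPM in CON replicates 1, 2 and 3 and 792, 303 and 775 CPM in SAP replicates 1, 2 and 3. SAP replicate 2 lay below the other 5 libraries, which overlapped between the groups. The class gave 38.4% of all C7 UMIs from 775 nuclei, and it exceeded fat-like nuclei, the next in order at 89.2 CPM ± 95.7 (SD, n = 4), in 4 of 4 rats. C7 was seen in both fibroblast-like clusters, at 1083 CPM ± 306 (SD, n = 4) in cluster N11 and 504.5 CPM ± 237 (SD, n = 6) in cluster N6. C1s in fibroblast-like nuclei was 399, 185 and 97.3 CPM in CON and 168, 65.9 and 204 CPM in SAP, so that CON replicate 1 stood far above the others. Mesothelial-like nuclei, the lining of the outer gut surface, had 157 CPM ± 128 of C1s (SD, n = 3) and were below fibroblast-like nuclei in 3 of 3 rats. In CON replicate 1, 1 mesothelial-like nucleus held 30 of the 347 C1s UMIs of the library.

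The 2 activating factors of the alternative pathway had sources that were barely sampled. Cfb was highest in mesothelial-like nuclei, at 632 and 224 CPM in CON replicates 1 and 3 and 252 CPM in SAP replicate 3, the only libraries with at least 10 such nuclei. The 128 mesothelial-like nuclei gave 35.1% of all 422 Cfb UMIs, and 17.5% without CON replicate 1, which held 245 of the 422. Of these 245, 1 mesothelial-like nucleus held 37. Cfd was highest in fat-like nuclei, at 1867, 1997 and 805 CPM in CON replicates 1, 2 and 3 and 815 CPM in SAP replicate 3. The top fat-like nucleus held 88 of the 418 Cfd UMIs of CON replicate 1, and that of CON replicate 2 held 51 of 233. The 84 fat-like nuclei gave 25.7% of Cfd UMIs. Thinned to 1200 UMIs, 56.0% of them had a Cfd UMI, against 0.529% of stem/TA-like nuclei, and without thinning 75.0% and 0.734%. SAP replicates 1 and 2 had 0 fat-like and 0 mesothelial-like nuclei, and CON replicate 2 had 4 mesothelial-like nuclei, so neither gene could be compared between the groups in its leading class. In bulk sums such as those over all nuclei, fewer cells of a type and less RNA per cell cannot be told apart.

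C3 had its highest level in neutrophil-like nuclei, 91.4 CPM ± 99.2 (SD, n = 3), on 23 UMIs in all. It was 0 in CON replicate 3, 197 in SAP replicate 1 and 77.2 in SAP replicate 3, the only libraries with at least 10 such nuclei. These were above enterocyte-like nuclei in 2 of 3 rats, so the 2 classes did not stand apart. Enterocyte-like nuclei are absorptive cells, but cluster E1, 5176 nuclei whose profile was closest to theirs, stayed outside the class. The enterocyte-like class gave 58.6% of the 1146 C3 UMIs. This share rested on CON replicate 1, where it was 71.9%, against 11.8% to 47.8% in the other 5 libraries, and without that library it was 28.04% (97 of 346). The level in these nuclei was 159, 9.38 and 10.5 CPM in CON replicates 1, 2 and 3 and 1.35, 5.80 and 4.50 CPM in SAP. CON replicate 1 was more than any other library by a wide margin, and 1 of its nuclei alone held 60 of the 800 C3 UMIs of that library. The excess was seen in all 3 enterocyte-like clusters, at 208 CPM in cluster E6, led by the lipid carrier gene Apoa4, at 111 CPM in cluster E5, led by the lactate carrier gene Slc5a12, and at 164 CPM in cluster E12, led by the bile acid carrier gene Fabp6.

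**Figure D2:**
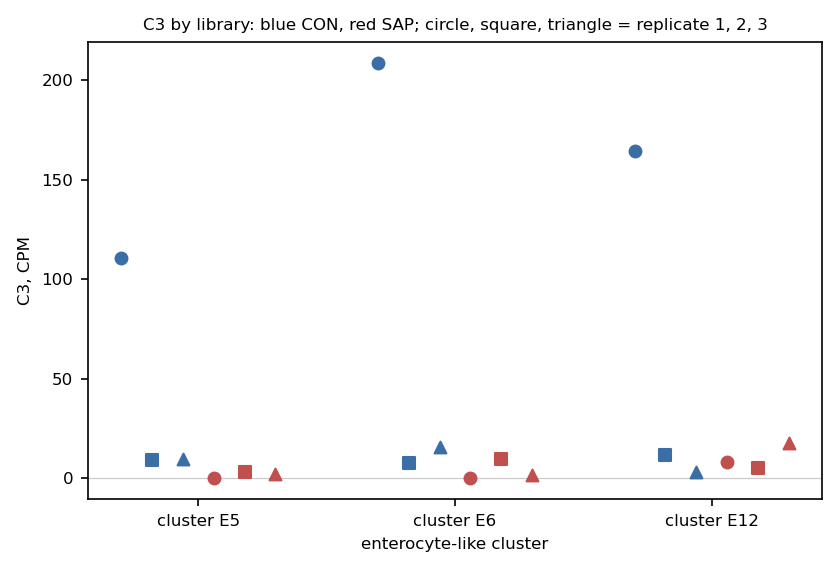
C3 in CPM in each enterocyte-like cluster, 1 point per library. CON replicate 1 lies far above the other 5 libraries, at 111 CPM in E5, 208 CPM in E6 and 164 CPM in E12.

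Cd55 had its highest level and the largest share of its UMIs, 49.8% of 10630, in enterocyte-like nuclei. There it was 127, 196 and 225 CPM in CON replicates 1, 2 and 3 and 309, 322 and 489 CPM in SAP replicates 1, 2 and 3. Each SAP library was above each CON library. Within the class cluster E6 was highest, at 499.96 CPM ± 227 (SD, n = 6), before E5 at 150.4 CPM ± 61.1 and E12 at 125 CPM ± 48.5. Neutrophil-like nuclei came next to the class as a whole, at 169 CPM ± 48.7 (SD, n = 3), and were below it in 3 of 3 rats. Thinned to 1200 UMIs and pooled over the rats of a group, 16.7% of CON and 29.8% of SAP enterocyte-like nuclei had a Cd55 UMI. The SAP value leans on SAP replicate 2, with 2198 such nuclei against 796 and 1035 in SAP replicates 1 and 3.

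**Figure D3:**
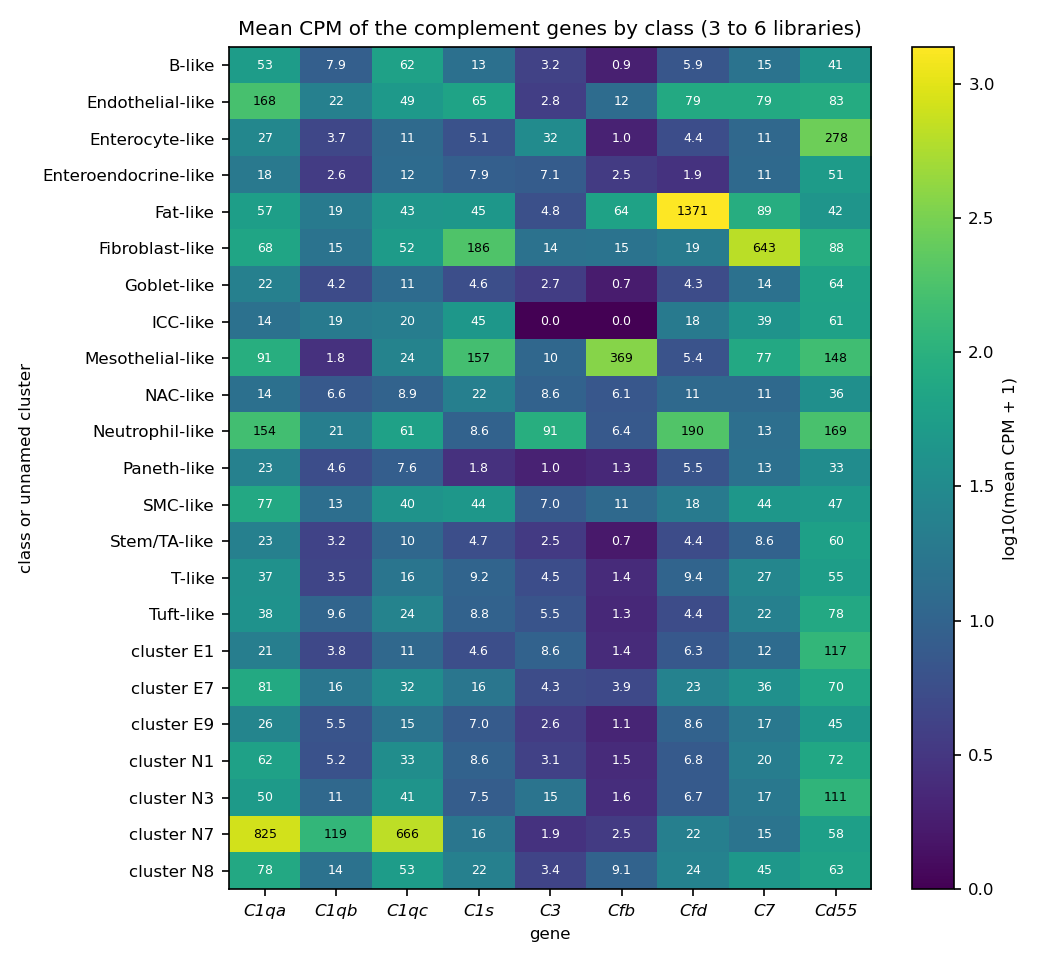
Mean CPM of each gene (columns) in each class or unnamed cluster (rows), over the 3 to 6 libraries with at least 10 nuclei, with colour on a log10 scale. The highest cells are Cfd in fat-like nuclei at 1371, C1qa in N7 at 825, C1qc in N7 at 666 and C7 in fibroblast-like nuclei at 643.

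Likeness across the 18 tested classes and clusters was measured as the Pearson correlation of log2(mean CPM + 1). It is a description, since the points share libraries and depth. The 18 leave out the leading classes of Cfd (fat-like), Cfb (mesothelial-like) and C3 (neutrophil-like), which had fewer than 10 nuclei in some libraries. Likeness for these genes was therefore measured only where their mean level was lower. For C3, the mean of enterocyte-like nuclei, which were among the 18, rested mostly on CON replicate 1. C1qa was most like C1qc (r = 0.96) and Cd163 (r = 0.95), C1qb was most like C1qc (r = 0.94), and C1qc was most like LOC102556805 (r = 0.98). Cd163 is the haemoglobin scavenger receptor of macrophages. C7 was most like Adamdec1 (r = 0.95), Dcn (r = 0.94) and Sfrp1 (r = 0.94). C1s was nearest to Ntn1 (r = 0.97), Fbn1 (r = 0.96) and Cyp7b1 (r = 0.95), and Cfb to Pxdn (r = 0.96), Sulf1 (r = 0.95) and Dlc1 (r = 0.95). Dcn and Fbn1 encode proteins of the connective tissue matrix. Cd55 was nearest to Frk (r = 0.96), Dgat1 (r = 0.95) and Kifc3 (r = 0.94), C3 to Pfkp (r = 0.86), Zyg11b (r = 0.84) and Slc6a19 (r = 0.84), and Cfd to Cxcl12 (r = 0.90), Bst2 (r = 0.89) and Amotl1 (r = 0.88).

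Between SAP and CON, none of the 9 genes was called over all nuclei. The test was edgeR's quasi-likelihood test on summed UMIs with Benjamini-Hochberg adjustment over all genes. Calls needed 2 things, adjusted p under 0.05 and a log2 fold change of 0.5 or more in size. Of 19187 genes tested 0 were called (0%), while 1618 had an unadjusted p under 0.05, among them 1 of the 9, Cd55. DESeq2 called 215 genes (1.54%), again with Cd55 as the only one of the 9. The 9 had a median log2 fold change of -0.47, against 0.02 over all genes tested. The sign of this median rested on 1 library, since it was 0.28 without CON replicate 1, and it was -0.98 without SAP replicate 3.

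Cd55 was 54.6, 75.4 and 66.5 CPM, here scaled by TMM (trimmed mean of M values), in CON replicates 1, 2 and 3 and 146, 226 and 120.0 in SAP replicates 1, 2 and 3. No SAP library overlapped with CON, which held for 4.9% of all genes with SAP higher. The log2 fold change was 1.32 ± 0.29 (SE, n = 3 per group; edgeR adjusted p = 0.545; DESeq2 adjusted p = 0.0140). Over all epithelial nuclei it was 1.39 ± 0.24 (SE; edgeR adjusted p = 0.418; DESeq2 adjusted p = 0.000773), where edgeR called 0 of 17406 genes (0%), DESeq2 called 2.01%, and 6.19% of genes did not overlap with SAP higher. In enterocyte-like nuclei it was 1.07 ± 0.23 (SE; edgeR adjusted p = 0.674; DESeq2 adjusted p = 0.0468), where edgeR called 0 of 12743 (0%), DESeq2 called 0.324%, and 6.13% did not overlap with SAP higher. Cd55 was therefore called by DESeq2 and not by edgeR in these fits, and the difference between the tools decides the call. Over all non-epithelial nuclei the log2 fold change of Cd55 was 0.98 ± 0.38 (SE; edgeR adjusted p = 0.704), and the groups overlapped. There edgeR called 0 of 16439 genes, and DESeq2 called 91 of 13229, with 0 of the 9 among them. Enterocyte-like nuclei, which held 49.8% of Cd55 UMIs, made up 10.56%, 12.68% and 13.14% of nuclei in CON replicates 1, 2 and 3. In SAP replicates 1, 2 and 3 they made up 24.96%, 36.83% and 13.11% (exact two-sided permutation test, p = 0.2). The log2 fold change over all nuclei covers both this share and the level within classes, and the part of each was not tested.

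Cd55 had a positive log2 fold change in 14 of the 14 class fits it entered, from 0.52 to 1.36, and in 5 of them the libraries did not overlap, a pattern that 6% of all gene tests in class fits showed. These 5 include endothelial-like nuclei, which numbered 20 in SAP replicate 1 (97.7 TMM-scaled CPM) and 32 in CON replicate 2 (81.9). Values there rest on few UMIs. The class fits share their libraries and are not independent of each other. Barcodes that failed quality control, which were not alike across libraries, had 44.9, 78.8 and 73.3 CPM of Cd55 in CON replicates 1, 2 and 3. They had 69.3, 177 and 142 CPM in SAP replicates 1, 2 and 3. The part of free RNA in the class fits of Cd55 was not tested. Within enterocyte-like nuclei the log2 fold change was 1.08 ± 0.37 (SE) in E6 and 0.98 ± 0.20 in E5. In E12 it was 0.12 ± 0.54, less than its SE, so no shift was seen there. E6 made up 28.8%, 27.5% and 39.2% of enterocyte-like nuclei in CON and 41.7%, 42.4% and 44.1% in SAP. The median mitochondrial share was highest in SAP replicates 1 and 2, while SAP replicate 3 (0.387%) lay below CON replicate 1 (0.700%). With nuclei held to 1% mitochondrial UMIs the log2 fold change over all nuclei was 1.09 ± 0.41 (SE). This limit kept only 384 of 3189 nuclei in SAP replicate 1 and 1908 of 5968 in SAP replicate 2. It kept 6825 of 7893 in SAP replicate 3 and 6176 to 7924 nuclei in the CON libraries.

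**Figure D4:**
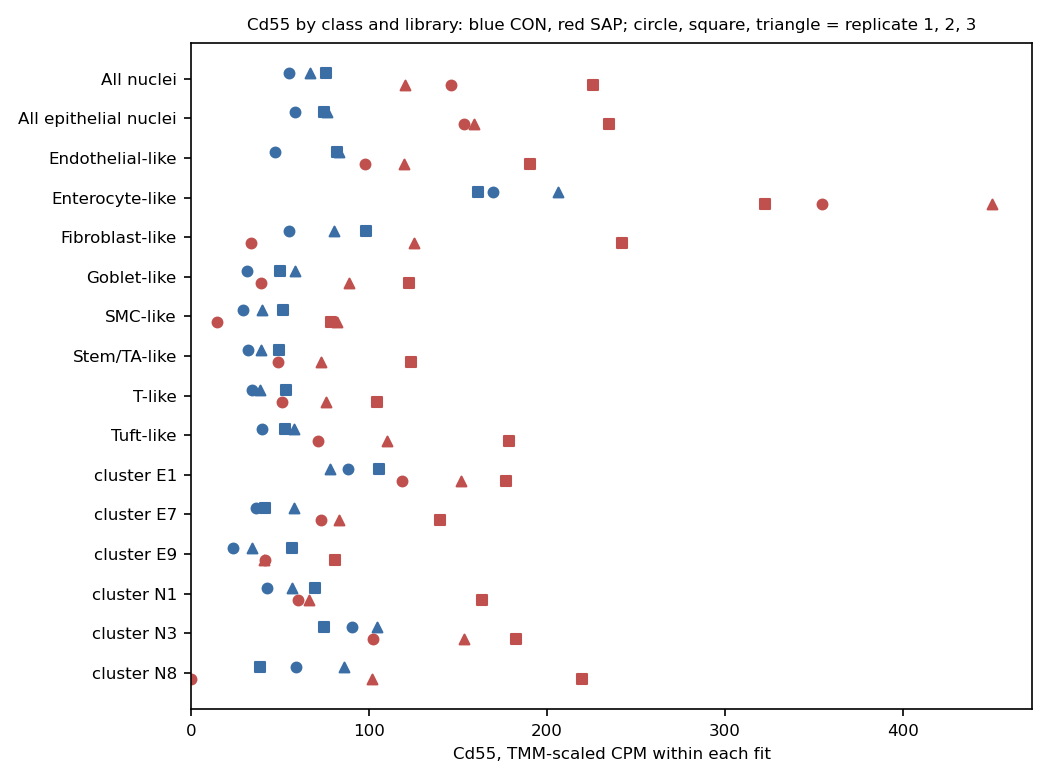
Cd55 in TMM-scaled CPM over all nuclei, over all epithelial nuclei and in every class fit it entered. CON is blue and SAP red, with 1 point per library and the replicate given by its shape. The fit over all non-epithelial nuclei is not drawn. Over all nuclei the SAP libraries sit between 120.0 and 226 and the CON libraries between 54.6 and 75.4.

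Over all nuclei, the CON libraries had 35.6, 2.90 and 5.41 TMM-scaled CPM of C3, and the SAP libraries 3.61, 4.89 and 3.76. The log2 fold change was -1.84 ± 0.86 (SE; edgeR adjusted p = 0.617), and without CON replicate 1 it was -0.0027 ± 0.53. In enterocyte-like nuclei it was -4.16 ± 1.34 (SE; edgeR adjusted p = 0.674), with all SAP libraries under all CON libraries, as in 7.11% of genes there, and without CON replicate 1 it was -1.08 ± 0.61. Most of the size of the C3 log2 fold change thus rested on this 1 control rat in both fits.

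None of the differences of the C1q chains passed the test. Over all nuclei, C1qa had 69.7, 45.9 and 36.8 TMM-scaled CPM in the CON libraries. The SAP libraries had 27.2, 13.03 and 62.5, which gave a log2 fold change of -0.56 ± 0.53 (SE; edgeR adjusted p = 0.841). C1qb had -0.11 ± 0.58 and C1qc -0.47 ± 0.44. The sizes moved with single libraries, C1qa to -1.35 without SAP replicate 3 and -0.15 without SAP replicate 2, and C1qc to -0.98 without SAP replicate 3 and -0.05 without CON replicate 1. In N7 C1qa had -1.09 ± 0.48 (SE; edgeR adjusted p = 0.9995), C1qb -0.20 ± 0.47 and C1qc -0.66 ± 0.40. N7 made up 1.37%, 0.783% and 1.56% of nuclei in CON and 0.533%, 0.201% and 2.496% in SAP (exact two-sided permutation test, p = 0.9; 3 against 3 cannot go below 0.1). SAP replicates 1 and 2 were the lowest libraries both in this share and in C1qa over all nuclei.

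No difference of the remaining genes passed the test either. Over all nuclei C7 had a log2 fold change of 0.32 ± 0.62 (SE), C1s 0.30 ± 0.63, Cfd -0.73 ± 0.77 and Cfb -1.18 ± 0.98. Leaving out SAP replicate 3 gave -1.68 for Cfd, and leaving out SAP replicate 2 gave -0.20. In fibroblast-like nuclei C7 had -0.01 ± 0.40 and C1s -0.57 ± 0.56 (SE; edgeR adjusted p = 0.984). C1s in SMC-like nuclei, smooth muscle, was 46.7, 15.9 and 23.3 TMM-scaled CPM in CON and 51.2, 82.7 and 69.7 in SAP, without overlap. CON replicate 1 and SAP replicate 1 lay close together. These values rest on few UMIs, since C1s had 56 UMIs over all nuclei in CON replicate 2. It had 41 in SAP replicate 1 and 72 in SAP replicate 2. The log2 fold change of C1s in SMC-like nuclei was 1.23 ± 0.42 (SE; edgeR adjusted p = 0.25). In SMC-like nuclei 1044 of 8476 genes had an unadjusted edgeR p under 0.05, and 31 were called. Over all class fits together, 6% of gene tests did not overlap with SAP higher. Over the 18 class fits the 9 genes entered 58 tests and were called in 0, with 13 at an unadjusted p under 0.05, 9 of them Cd55, 2 C1qa, 1 C1s and 1 C3, against 7.73% of all gene tests in these fits. Over all genes 41 of 140536 class tests were called (0.0292%), and 143 with the replicate number as a block, under which 0 tests of the 9 genes were called. All SAP libraries were lower in 3 of the 58, against 7.52% of all tests. Cfb passed the filter on low counts in 0 of the 18 class fits.

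**Figure D5:**
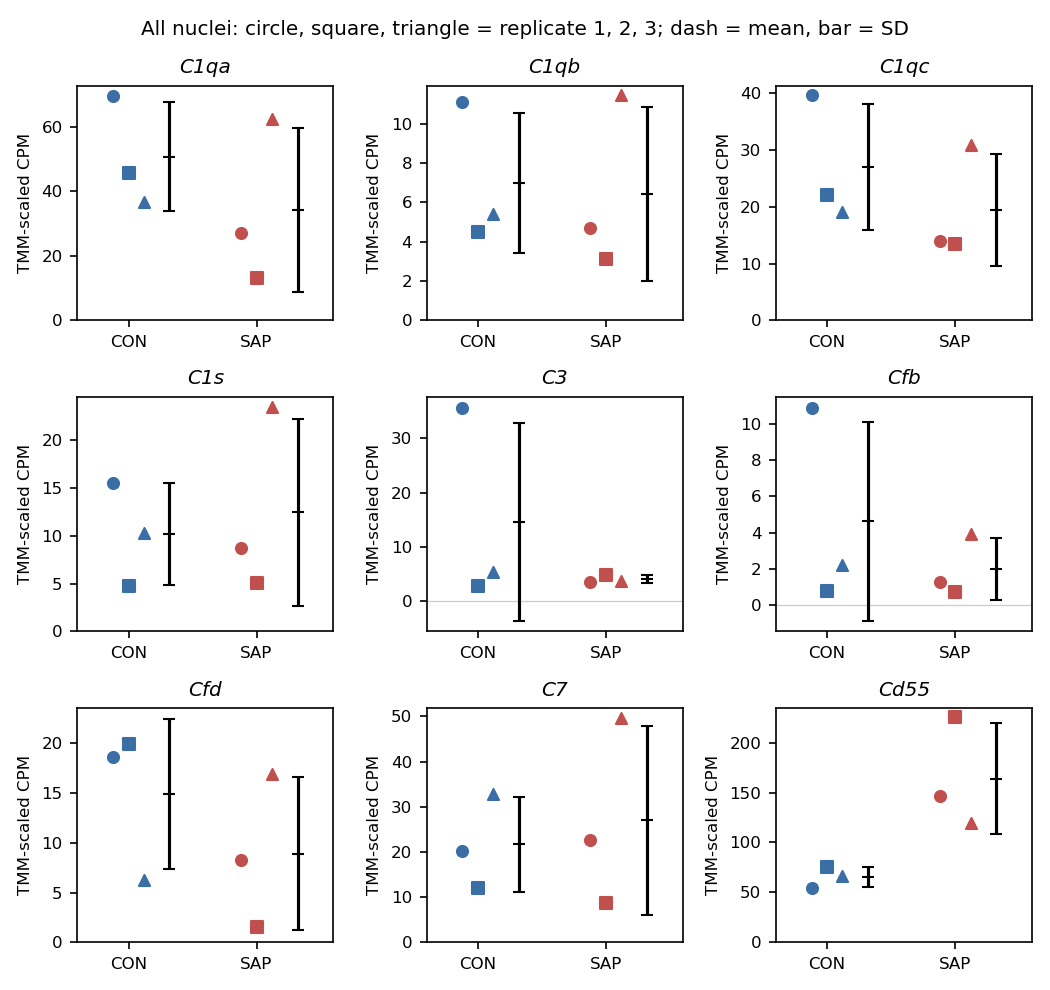
TMM-scaled CPM of the 9 genes over all nuclei, 1 point per library, with the mean (dash) and SD (bar) of each group of 3. Cd55 is the only gene whose CON and SAP libraries do not overlap, and C3 and Cfb have 1 high CON library each, replicate 1.

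Of the other complement genes, 27 had at least 100 UMIs, and 0 were called over all nuclei. They had 20 positive and 7 negative log2 fold changes. An unadjusted edgeR p under 0.05 was seen for 1 of the 27, against 1618 of all 19187 genes tested. In class fits it was seen in 12 of their 92 tests, against 7.73% of all gene tests, and 0 were called. The regulators Cd59b, Cr1l and Cfi, the classical pathway genes C2, C1r and C4a, the receptor Cr2 and the chaperone Clu had the highest means over the 6 libraries. For Cr2, a receptor of B cells, this rested on SAP replicate 3, at 50.8 TMM-scaled CPM against 0.50 to 16.0 in the others, without which it ranked 14 of 27. C2, the protease partner of C4, ranged over 17.8 to 19.2 TMM-scaled CPM in CON and 20.5 to 56.1 in SAP. The groups did not overlap, as in 4.9% of all genes with SAP higher. Cfi, the protease that inactivates C3b, had 164, 60.9 and 35.6 in the CON libraries against 61.2, 26.1 and 15.4 in the SAP libraries, which overlapped.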

How the data were processed

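Nuclei of 6 ileum libraries were measured. The deposited files hold UMI counts per gene and barcode, made by the authors with dnbc4tools; the submitters' processing notes name mRatBN7.2 and Seurat 4.3.0. The study's limits were applied, 1200 UMIs and 500 genes as minima and 5% mitochondrial UMIs as maximum, which left 40970 of 90461 barcodes. Scanpy 1.11.5 and leidenalg 0.10.2 were used with 2000 variable genes, 30 principal components, Harmony, 20 neighbours and resolution 0.8, in a second round for non-epithelial nuclei. Scrublet scores marked no doublets by its own threshold, so doublets were kept. In an alternative, the 5% of nuclei with the highest scores in each library, 1817 in all, were left out. That cut was not a call of doublets. A cluster was named where its markers had a mean log2 ratio of at least 0.5 and led the next class by 0.8, with at least 3 detected. Counts summed per library went into robust quasi-likelihood fits of edgeR 4.0.16, filtered by filterByExpr and scaled by TMM. The fit was run on simulated data first. These had the same spread setting for every gene, so they do not show how the fit does on the real libraries. DESeq2 1.42.0 was an alternative. Standard errors are the log2 fold change divided by the root of the F statistic. CPM by class is unscaled.

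The genes and lists were chosen with earlier results of these data known. The clustering was revised 2 times, and the naming rules edited, after cluster names and leading genes (C1qa, C1qc, C3, C7, Cfb and Cfd among them) had been seen. The second round was added because macrophage and neutrophil nuclei, and T and B nuclei, had been merged, and Paneth-type clusters with stem markers were kept unnamed. A naming lead of 0.5 was then tried because N7 had missed 0.8, and levels by class were computed under it before the lead of 0.8 was restored. All results had also been computed once from an earlier run of the clustering that a rerun did not give again. The clusters used here came out identically in 4 runs and were not chosen by their results. Named in the text are the 9 genes, the 8 other complement genes of highest CPM, and the 3 genes most like each. Each library is 1 rat. Same-numbered CON and SAP libraries deviated together over all nuclei (r = 0.577, 0.183 and 0.524), and over epithelial nuclei with r = 0.593, 0.0797 and 0.457, where the second pair lay below 2 unmatched pairings (0.0912 and 0.145). The pairing is a hint from the data alone. The reported fits carry no block, and the block is an alternative.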

Additional observations from a re-analysis of the deposited data

How the results depend on the processing

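No gene of the 9 was called by edgeR over all nuclei or over all epithelial nuclei in these alternatives. They were another scaling, no filter, a depth covariate, 1% mitochondrial UMIs and each library left out. Leaving out the top 5% of doublet scores also called none. With the replicate block 0 were called in all 3 families of fits, so it changed no call of the 9. Over all genes it moved the calls of the 18 class fits from 41 to 143, with most of the gain in SMC-like nuclei (31 to 53), cluster E9 (3 to 36) and cluster N1 (1 to 36). DESeq2 called 1, Cd55, over all nuclei, over epithelial nuclei and in class fits (enterocyte-like), with log2 fold changes of 1.35 and 1.08 over all nuclei and in enterocyte-like nuclei. In class fits, edgeR with every gene of at least 1 count kept called 2 tests, C1qa in cluster N1 and C3 in cluster N3. Over all genes this setting called 147 of 24750 in N1 and 120 of 22398 in N3, against 1 in each main fit. Leaving out a library called 0 to 1, the 1 being C1qa in N1 without SAP replicate 3 (log2 fold change -3.26, against -1.41 with it). Without that library 124 of 10013 genes were called in N1, against 1 of 10811 with it. The cause was not tested. At either other resolution, without integration, or under a naming lead of 0.5, tried after the clusters were seen, 0 were called.

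Log2 fold changes changed sign in 24 of 346 alternatives. With library totals alone C1qb over all nuclei was 0.13, and at 1% mitochondrial UMIs Cfd in cluster E7 was 0.96. With the replicate block C1qa in endothelial-like nuclei was 0.15, C1qb in N7 0.098 and C7 in endothelial-like nuclei 0.13. Without 1 library, values over all nuclei ranged from -0.87 to 0.41 for C1qb, -0.58 to 0.75 for C1s, -2.31 to 0.45 for Cfb and -0.49 to 0.76 for C7. In endothelial-like nuclei they ranged from -1.60 to 1.31 for C1qa and -0.55 to 0.33 for C7, in fibroblast-like nuclei from -1.02 to 0.32 for C1s and -0.28 to 0.27 for C7, in N7 from -0.45 to 0.063 for C1qb, in cluster E7 from -0.80 to 0.67 for C1qb and -1.92 to 0.37 for Cfd, and in enterocyte-like nuclei from -2.001 to 0.18 for Cfd. Cd55 over all nuclei ranged from 1.02 to 1.51. Without integration of the libraries the cluster of highest C1q, led by macrophage markers but unnamed, gave 10.9% of C1qa, 7.49% of C1qb and 12.3% of C1qc UMIs. The leading class of C3 became enterocyte-like, with 61.7% of its UMIs. It did so too without the top 5% of doublet scores (59.7%) and at 1% mitochondrial UMIs (56.7%). The leading class was taken only among classes with at least 10 nuclei in 3 or more libraries. By that rule the leading class of Cfb became fat-like, with 4.03%. The mesothelial-like cluster found without integration, 114 nuclei, still had Cfb among its leading genes. At resolution 0.4 enterocyte-like nuclei gave 36.6% of Cd55 UMIs. The other 100 of 108 percentages moved by less than the SD over libraries. Few nuclei limit the fat-like, mesothelial-like and neutrophil-like values.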
